A study of Mus musculus with 4 samples.

Results

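The 7 Nkx2 homeobox genes, Nkx2-1, Nkx2-2, Nkx2-3, Nkx2-4, Nkx2-5, Nkx2-6 and Nkx2-9, were followed in maps of H3K27me3, the repressive trimethyl mark on lysine 27 of histone H3. The genes were taken by symbol, and a peak was counted for a gene when it lay in the gene or within 20 kb of either end on the mouse genome build mm10. The rule itself uses no measured value, but the family was picked with earlier results of these data known, so its counts are a description. It gave 7 of 21951 protein-coding genes. It also gave 95 of the 10223 peaks in the library made from 500 cells and 40 of the 15282 peaks in that made from 15000 cells. The authors' annotated tables listed 2 and 1 further peaks under Nkx2-3, all beyond its window, so that the whole choice held 97 and 41 peaks.

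The cells were erythro-myeloid progenitors (EMPs), blood progenitors that arise from hemogenic endothelium of the yolk sac, and were sorted for KIT, CD41 and CD16/32 on their surface. They came from E10.5 embryos of the C57BL/6 strain labelled "Ezh2fl/fl; Tie2-Cre+/+ Wild type". The study calls them wild type, and they were read so here. Ezh2 is the catalytic subunit of the complex that writes the mark, and fl/fl marks a floxed allele. Tie2-Cre acts in endothelium and in the blood cells derived from it. CUT&RUN, which cuts and releases the DNA beside an antibody-bound chromatin protein, was run on 500 and on 15000 EMPs, with a single H3K27me3 library per cell number. An IgG library of equal cell number, made beside it, served as background in peak calling and no IgG peaks were used here. With 1 library per cell number there was no spread between replicates and no test between the libraries, and each difference below is one between 2 libraries. Peak calling used a p-value limit of 0.01 for 500 EMPs and of 0.05 for 15000 EMPs. Sequencing depth, amplification, instrument and read length also went with cell number, so that these and the cell number cannot be told apart. By the study's reporting summary, far fewer reads were sequenced and a much smaller share of them aligned for the smaller cell number, and the part of this in the narrower peaks and gaps described here was not tested. The files used here gave the positions of peaks with no height or read count, so the reads behind a single peak were not examined. A smaller share of marked cells cannot be told apart from less mark per cell.

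NK2 homeodomain proteins are transcription factors that bind DNA through a homeodomain and direct the formation of organs outside the blood. Nkx2-5 and Nkx2-6 act in the heart and pharynx, Nkx2-1 in thyroid, lung and ventral forebrain, Nkx2-2 and Nkx2-9 in the ventral neural tube, Nkx2-2 also in pancreatic islets, and Nkx2-3 in spleen and gut. Nkx2-4 is a close relative of Nkx2-1 known from the hypothalamus. Genes of this kind are classical targets of the Polycomb repressive complex, which places H3K27me3 in broad domains over CpG-rich developmental genes in tissues where they are silent.

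All 7 Nkx2 genes carried H3K27me3 in both libraries. By the distance in the authors' tables, 7 of 7 had a peak at most 3 kb away in 500 EMPs and 7 of 7 in 15000 EMPs, whereas 9.72% and 16.7% of all protein-coding genes did. At the members this distance ran to the nearer end of the gene, which can be its start or its far end. In both libraries 7 of 7 held at least 1 peak within 20 kb, against 18.5% and 30.1% of all genes. The 2 libraries differed in the shape of the signal over these genes. The 500-EMP library showed 95 narrow peaks with a median width of 466 bp, and the 15000-EMP library showed 40 peaks with a median width of 2167.5 bp over the same stretches. The peak map by distance from the gene start shows rows of short segments above long bars at each gene.

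**Figure D1:**
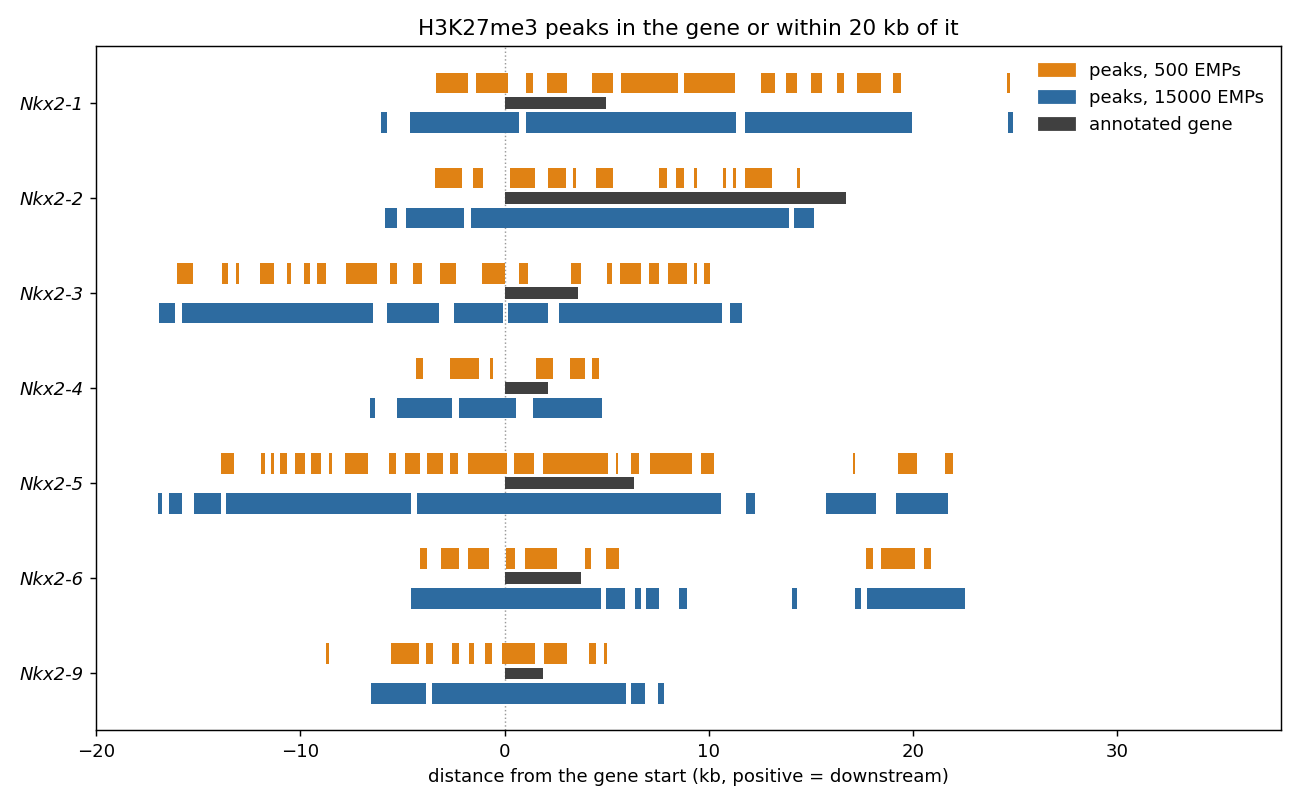
Peaks of 500 EMPs (upper, orange) and 15000 EMPs (lower, blue) around each Nkx2 gene (dark bar), by distance from the gene start in kb, with the direction of transcription to the right. Both libraries mark all 7 genes, with 95 peaks in 500 EMPs and 40 in 15000 EMPs.

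The 2 lists met at nearly every 500-EMP peak. Of the 95 peaks in 500 EMPs, 94 (98.9%, 95% Wilson interval 94.3 to 99.8, which covers counting error only) shared at least 1 bp with a 15000-EMP peak, and 82 lay wholly inside one. Over the whole lists this share was 91.2%. In the other direction 25 of the 40 peaks in 15000 EMPs (62.5%, interval 47 to 75.8) overlapped a 500-EMP peak, against 32.2% over the whole list, and 17 of them held at least 2 peaks of the 500-EMP list. The intervals treat neighbouring peaks of a domain as independent, which they are not. The 15 peaks of 15000 EMPs without a counterpart were short, 179 to 778 bp, and all lay outside the gene bodies. The single 500-EMP peak without a counterpart was 137 bp wide, the smallest width of that list, and began 8624 bp upstream of Nkx2-9.

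In total, peaks covered 67291 bp of the Nkx2 windows in 500 EMPs and 140538 bp in 15000 EMPs. This is 21.1% and 44% of the 319306 bp in the windows. The ratio of 2.09 between the libraries was smaller than the ratio of 4.03 over all peaks of the lists. Among the members the ratio ran from 1.67 at Nkx2-1 to 2.62 at Nkx2-2.

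The peak nearest to a gene start was then set beside the start itself. The start base lay inside a peak for 4 of 7 members in 500 EMPs (Nkx2-1, Nkx2-3, Nkx2-5 and Nkx2-9), against 1.4% of all protein-coding genes. In 15000 EMPs it did for 6 of 7, all but Nkx2-3, against 8.62%. The starts of Nkx2-2, Nkx2-4 and Nkx2-6 lay between peaks of the 500-EMP list, with the nearest peak 260, 595 and 67 bp away. For Nkx2-2 the annotated gene start is that of non-coding transcripts, and its 2 coding transcripts start inside the gene. The coding start at position 147186404 lay inside a peak in both libraries, and that at position 147186101 lay inside a 15000-EMP peak and 172 bp from the nearest 500-EMP peak.

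Nkx2-3 was the one member whose start was covered in 500 EMPs and not in 15000 EMPs. A 500-EMP peak of 1129 bp ran across the start and ended 21 bp past it. The 15000-EMP peaks left a gap of 266 bp there, from position 43612230 to 43612495 on chromosome 19, with the start 96 bp from the nearest peak. To show which promoter bases fell on each side of the edge, the promoter of Nkx2-3 is printed from RefSeq on GRCm38.p6, chr19:43612075-43612374 on the plus strand. The 155 bases in capitals lie inside a 15000-EMP peak, and the 500-EMP peak held 272 of the 300 bases.
Nkx2-3: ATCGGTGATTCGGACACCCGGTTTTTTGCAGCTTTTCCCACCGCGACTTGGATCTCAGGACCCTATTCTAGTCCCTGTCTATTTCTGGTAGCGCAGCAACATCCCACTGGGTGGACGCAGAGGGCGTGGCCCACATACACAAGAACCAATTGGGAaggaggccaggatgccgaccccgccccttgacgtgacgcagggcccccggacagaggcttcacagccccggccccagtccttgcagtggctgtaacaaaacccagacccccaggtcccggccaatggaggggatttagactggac

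The promoters of Nkx2-4 and Nkx2-5 are shown because they hold the most and the fewest CpG pairs among the 6 members with an entry in the RefSeq promoter table (Nkx2-6 had none). Nkx2-4 (chr2:147085296-147085595, minus strand) held 38 CpG pairs and Nkx2-5 (chr17:26841516-26841815, minus strand) held 9, against a median of 7 over 32841 promoters. No base of the Nkx2-4 promoter lay in a 500-EMP peak, and all 300 bases lay in a 15000-EMP peak. All 300 bases of the Nkx2-5 promoter, which belongs to the downstream of its 2 annotated starts, lay in a peak in both libraries. CpG pairs are in capitals, and both sequences read 5′ to 3′ along the gene.
Nkx2-4: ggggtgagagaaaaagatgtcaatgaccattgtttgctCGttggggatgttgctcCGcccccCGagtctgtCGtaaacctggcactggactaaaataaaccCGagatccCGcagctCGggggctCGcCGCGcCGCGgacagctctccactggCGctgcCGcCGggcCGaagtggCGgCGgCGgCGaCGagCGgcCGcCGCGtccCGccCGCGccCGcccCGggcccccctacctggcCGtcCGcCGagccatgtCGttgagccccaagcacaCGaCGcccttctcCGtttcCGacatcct
Nkx2-5: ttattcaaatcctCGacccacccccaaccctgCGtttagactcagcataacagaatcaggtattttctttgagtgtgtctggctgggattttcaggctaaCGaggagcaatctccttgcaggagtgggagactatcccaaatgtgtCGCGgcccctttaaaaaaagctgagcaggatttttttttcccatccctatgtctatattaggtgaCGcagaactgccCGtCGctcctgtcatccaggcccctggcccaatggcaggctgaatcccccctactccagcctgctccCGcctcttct

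A search of both strands found the letters TATAAA in 0 of the 6 promoters, against 13.6% of all promoters of this length. The letters TNAAGTG, the core bound by NK2 proteins, occurred in 1 of the 6, that of Nkx2-2, against 11.5%. A match of letters is a description of the window only. For the remaining promoters, all 300 bases of Nkx2-1 and of Nkx2-2 lay in a peak in both libraries, and Nkx2-9 had 156 bases in a 500-EMP peak and 300 in a 15000-EMP peak.

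The length covered by peaks within 3 kb of the start, a window of 6001 bp, gave a graded measure for each gene. The median over the 7 members was 3599 bp in 500 EMPs and 5672 bp in 15000 EMPs. Over all protein-coding genes both medians were 0, and over the genes with any covered base there they were 789 bp and 2743 bp. In 500 EMPs the order from most to least covered was Nkx2-5, Nkx2-1, Nkx2-6, Nkx2-9, Nkx2-2, Nkx2-4 and Nkx2-3. In 15000 EMPs Nkx2-5, Nkx2-6 and Nkx2-9 shared the top with the whole window covered, and Nkx2-4 and Nkx2-3 were again lowest. For Nkx2-2 the window lay around the start of its non-coding transcripts. Coverage around its coding starts was not measured, so its place in these orders holds for the non-coding start only. Without replicates it cannot be said which neighbours in these orders differ beyond the spread between libraries.

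**Figure D2:**
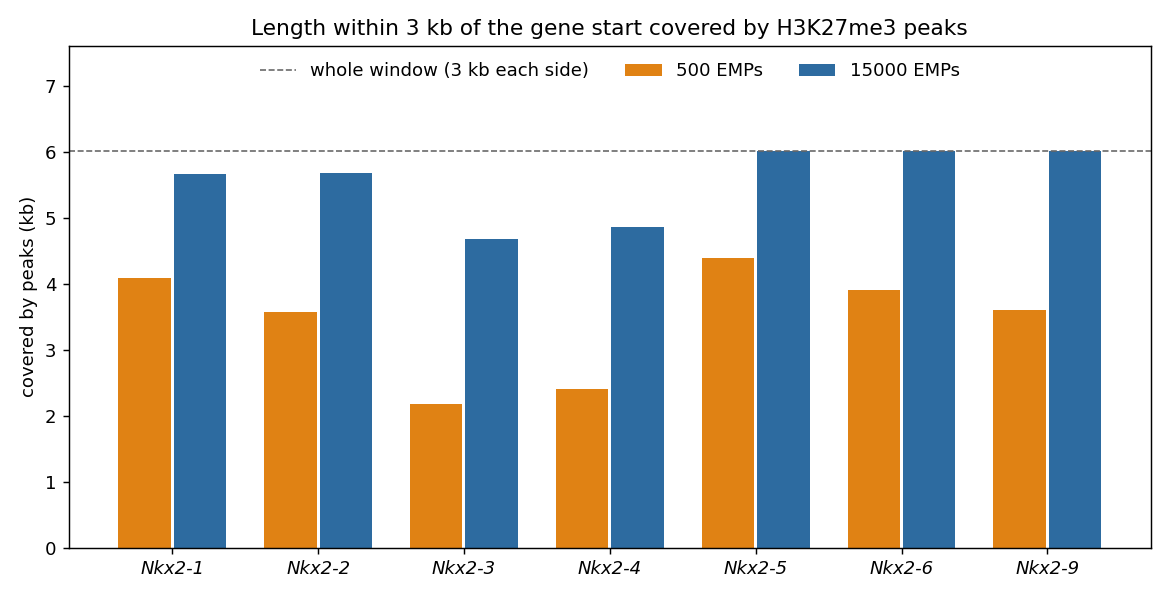
Length in kb within 3 kb of the annotated gene start that lay in H3K27me3 peaks, for each Nkx2 gene in 500 EMPs (orange) and 15000 EMPs (blue), 1 library each. For Nkx2-2 this is the start of non-coding transcripts. The dashed line is the whole window of 6001 bp, reached by Nkx2-5, Nkx2-6 and Nkx2-9 in 15000 EMPs, and each gene was less covered in 500 EMPs.

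Among the cardiac and pharyngeal members, Nkx2-5, a core factor of the heart fields, was the most covered gene of the family in 500 EMPs. Its start window held 4386 covered bp in 500 EMPs and 6001 bp in 15000 EMPs. In 500 EMPs 47 of 21951 genes (0.214%) had more, and in 15000 EMPs no gene could have more. The gene lies at chr17:26838664-26845009 on the minus strand. A single peak of 14881 bp spanned it in 15000 EMPs, where the 500-EMP list had 10 peaks under that peak, the widest of 3187 bp inside the gene. That peak was the widest of the 500-EMP list in any Nkx2 window. Upstream, the last peak reached -13902 bp from the start in 500 EMPs and -16958 bp in 15000 EMPs, and both of its annotated starts lay inside a peak in both libraries.

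Nkx2-6, which acts in pharyngeal endoderm and the outflow region, lies at chr14:69171802-69175518 on the plus strand. Its start window held 3898 bp in 500 EMPs and 6001 bp in 15000 EMPs, and a 15000-EMP peak of 9309 bp spanned the gene. Its 20 kb window held 7677 covered bp in 500 EMPs and 16868 bp in 15000 EMPs. Of these, 5301 and 11546 bp lay in the stretch of peaks at most 3 kb apart over the gene. The rest lay further downstream, in peaks that the authors' tables pair with other symbols.

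Nkx2-1, the thyroid and lung factor, lies at chr12:56531958-56536908 on the minus strand. Its start window held 4080 bp in 500 EMPs and 5664 bp in 15000 EMPs. The mark reached much further downstream than upstream: peaks no more than 3 kb apart formed a stretch from -3383 to 19416 bp relative to the start in 500 EMPs. In 15000 EMPs this stretch ran from -6071 to 19947 bp. It extended over the start of the non-coding neighbour Sfta3-ps. The tables listed the 15000-EMP peak of 10264 bp that holds all coding bases of Nkx2-1 under Sfta3-ps only. A count by symbol therefore gave Nkx2-1 only 2 rows in 15000 EMPs and 4 in 500 EMPs.

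Nkx2-4, the close relative of Nkx2-1, was the least marked member by total length. It lies at chr2:147083316-147085445 on the minus strand, and its window held 3835 covered bp in 500 EMPs and 9184 bp in 15000 EMPs. The start window held 2400 bp and 4856 bp. It was also the one member that no peak wider than 5 kb touched in 15000 EMPs. Xrn2, a broadly used RNA exonuclease gene downstream of it, held 0 peaks in both libraries over its 65005 bp. The first peak lay 2835 bp past the end of Xrn2 in 500 EMPs and 2678 bp past it in 15000 EMPs.

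Nkx2-2 and Nkx2-9, the ventral neural members, differed in the width of their stretches. Nkx2-2 (chr2:147177546-147194243, minus strand) held the widest peak of the family, 15588 bp in 15000 EMPs, under which the 500-EMP list had 11 peaks. Its start window, around the non-coding gene start, held 3564 bp and 5672 bp. Nkx2-9 (chr12:56611389-56613284, minus strand) is the shortest gene of the family and was spanned by a 15000-EMP peak of 9515 bp. Its start window held 3599 bp and 6001 bp, and its start lay in a 500-EMP peak of 1582 bp.

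Nkx2-3, which acts in spleen and gut mesenchyme, lies at chr19:43612325-43615892 on the plus strand. Among the windows around the annotated gene starts of the family, its start window was the least covered. This window held 2172 bp in 500 EMPs and 4676 bp in 15000 EMPs, and 1.67% and 3.32% of all genes had more. In contrast, its 20 kb window held 11057 bp and 25553 bp, more than that of Nkx2-2, Nkx2-4, Nkx2-6 and Nkx2-9 in both libraries. Most of that length lay upstream, where a single 15000-EMP peak of 9356 bp stood over 8 peaks of the 500-EMP list. The further peaks paired with Nkx2-3 in the tables were 188 and 276 bp wide in 500 EMPs and 2858 bp wide in 15000 EMPs.

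Peaks wider than 5 kb lay at most of these genes in 15000 EMPs. In 15000 EMPs 10 of the 40 peaks exceeded 5 kb, against 5.73% of all peaks, and such peaks touched 6 of the 7 genes, against 3.25% of protein-coding genes and 65.2% of the 115 homeobox genes listed further on. In 500 EMPs 0 of 95 did so, against 0.293% of all peaks. There 0 of 7 genes were touched, against 0.137% of protein-coding genes and 13% of the 115 homeobox genes. The absence of wide peaks at the 7 genes is thus at the background of all genes in that library. Some genes of the homeobox list did have wide peaks there. A single peak spanned 3 members in 15000 EMPs, Nkx2-5, Nkx2-6 and Nkx2-9, against 0.642% of all genes. Of the 95 peaks in 500 EMPs, 13 had the smallest width of that list, 137 bp, as did 1759 of all 10223 peaks. In 15000 EMPs 0 of 40 had the smallest width of the list, as did 388 of all 15282, and neither count stands apart from its list.

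**Figure D3:**
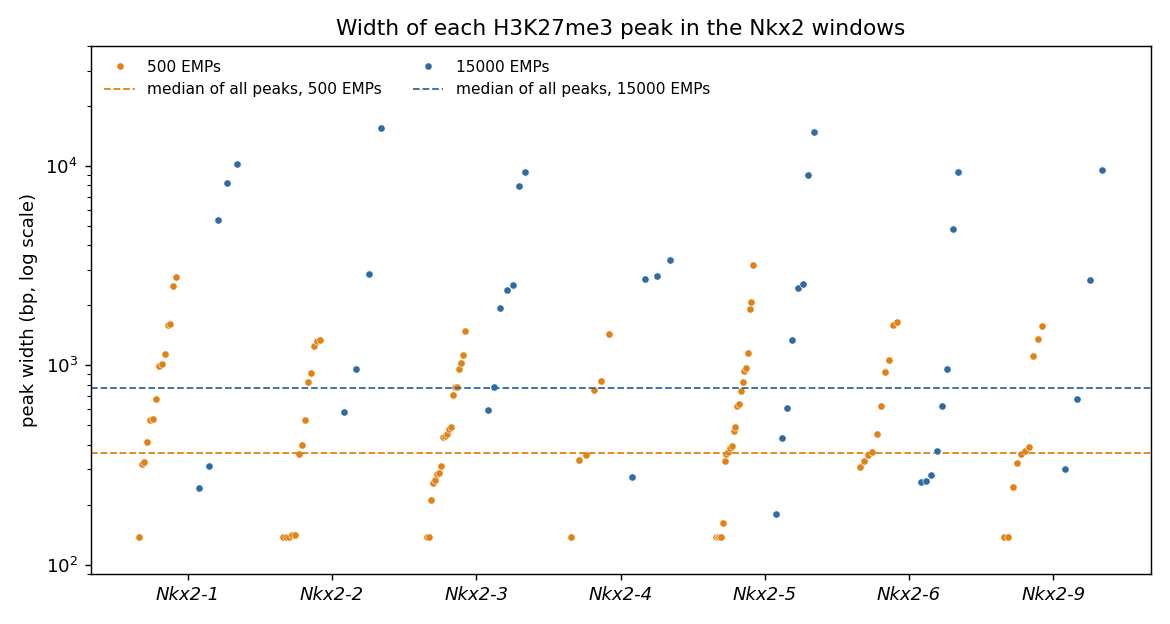
Width in bp (log scale) of every peak in each Nkx2 window, in 500 EMPs (orange) and 15000 EMPs (blue), with the median of all peaks of each list as a dashed line, 363 and 770 bp. The 15000-EMP peaks reach 15588 bp and the 500-EMP peaks reach 3187 bp, and in both libraries each gene also has peaks below the list's median.

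When peaks at most 3 kb apart were joined, the 2 libraries outlined stretches of similar extent around the genes. The stretch over Nkx2-3 measured 26078 bp in 500 EMPs and 28554 bp in 15000 EMPs, that over Nkx2-5 24148 bp and 29209 bp, and that over Nkx2-1 22800 bp and 26019 bp. Shorter stretches lay over Nkx2-2 (17880 and 21002 bp), Nkx2-9 (10566 and 14361 bp), Nkx2-6 (9722 and 13543 bp) and Nkx2-4 (8943 and 11385 bp). The order of the 7 lengths was the same in both libraries apart from Nkx2-3 and Nkx2-5, which changed places. What differed was how much of a stretch lay in peaks, 42.4% to 63.2% in 500 EMPs and 80.7% to 95.2% in 15000 EMPs.

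Between neighbouring members long stretches held no peak. Nkx2-1 and Nkx2-9 lie 74480 bp apart on chromosome 12, and the longest stretch free of peaks between them was 67988 bp in 500 EMPs and 62492 bp in 15000 EMPs. Nkx2-4 and Nkx2-2 lie 92100 bp apart on chromosome 2, with a free stretch of 90017 bp and 87022 bp. Each pair thus had separate stretches of the mark in both libraries.

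The bases left out of peaks inside the genes were not evenly placed. In 500 EMPs peaks covered 22.4% of the coding bases of the 7 genes and 48.7% of their other bases. In 15000 EMPs the shares were 83.1% and 92.2%. In 500 EMPs the covered share of the coding sequence was below that of the whole gene for 6 of 7 members, all but Nkx2-9. This was also the usual pattern of that library, found in 81.4% of 2291 protein-coding genes with a peak inside, whereas in 15000 EMPs it was found for 3 of 7 members and in 58.1% of 4037 genes. Nkx2-3 was the extreme case, with 0% of its coding bases covered in 500 EMPs and 49.2% in 15000 EMPs, and Nkx2-4 followed with 1.22% and 60.4%.

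**Figure D4:**
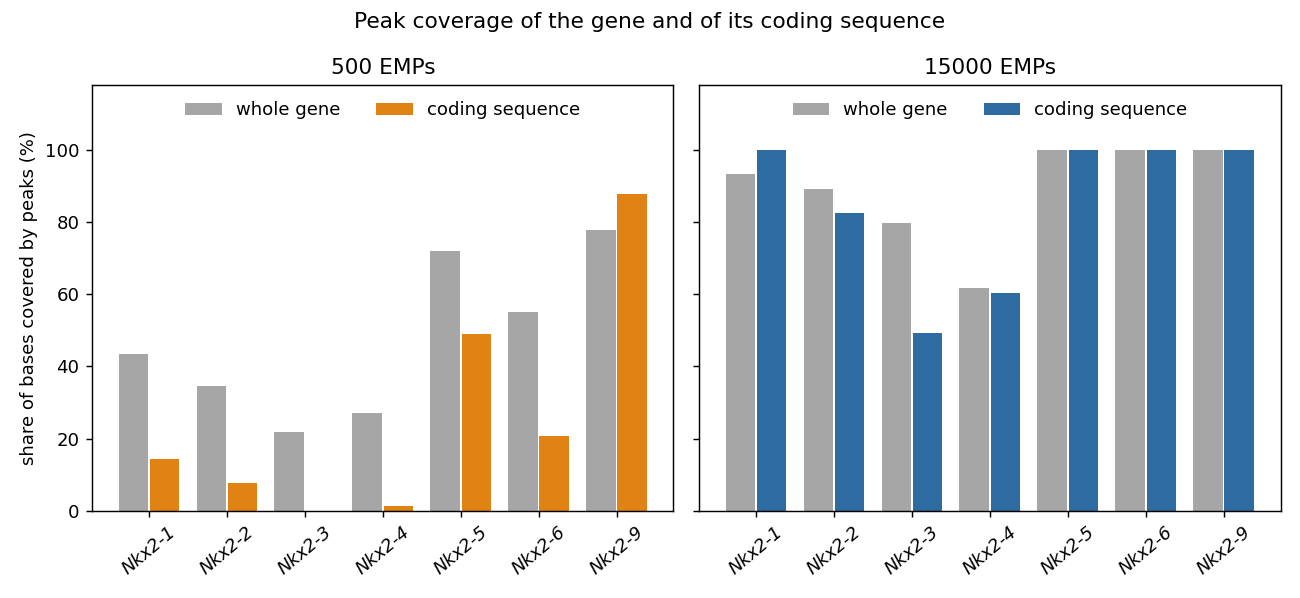
Share of bases covered by peaks in the whole gene (grey) and in its coding sequence (coloured) for each Nkx2 gene, in 500 EMPs (left) and 15000 EMPs (right). In 500 EMPs the coding share is lower than that of the gene for 6 of 7 members, with 0% at Nkx2-3 and 87.8% at Nkx2-9.

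Base composition moved with these gaps. Within the joined stretches of the 7 genes, bases in 500-EMP peaks had 20.3 CpG pairs per kb and a GC content of 47.5%, and bases between peaks had 34.2 CpG pairs per kb and 51.3% GC. CpG density was higher between 500-EMP peaks at 6 of 7 members, most of all at Nkx2-4 with 52.1 against 9.65 pairs per kb. Nkx2-9 was the exception, with 13.8 between peaks and 24.2 inside. This too was the usual pattern of the library, found at 79.9% of 1588 protein-coding genes whose stretches held gaps. In 15000 EMPs the overall densities were 23.8 inside and 25.4 between peaks, and the density was higher between peaks at 3 of 7 members, Nkx2-1, Nkx2-3 and Nkx2-4, and at 57.9% of 2764 genes. Whether composition or read length plays a part in the gaps was not tested.

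Around the start, the members ranged widely in CpG number. Within 1 kb of the annotated gene start Nkx2-4 had 178 CpG pairs, Nkx2-2 133, Nkx2-1 92, Nkx2-3 80, Nkx2-5 70, Nkx2-9 67 and Nkx2-6 50. The median was 61 over 21931 protein-coding genes. When these genes were divided into 4 classes of rising CpG number, the share with a peak at most 3 kb away was 0.984%, 6.94%, 12.6% and 17.9% in 500 EMPs. In 15000 EMPs it was 2.4%, 15%, 21.7% and 27%. Nkx2-6 fell in the class from 22 to 60 pairs, Nkx2-2 and Nkx2-4 in that from 98 pairs upward, and the other 4 members in between. The 7 members were thus marked across CpG numbers at which most genes had no peak.

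The other genes of the NK and homeobox families gave a setting for these values. A set of 6 other NK genes (Nkx1-1, Nkx1-2, Nkx3-2, Nkx6-1, Nkx6-2 and Nkx6-3) all had a peak at most 3 kb away in both libraries. Their median covered length in the start window was 3030 bp in 500 EMPs and 5564 bp in 15000 EMPs, from 614 and 2456 bp at Nkx6-3 to 4462 and 6001 bp at Nkx6-2. A wider list held 115 genes whose predicted protein has a conserved residue run of the homeodomain recognition helix, 3 of the Nkx2 genes among them. All 6 other NK genes were in this list too, so the sets are not separate. Of the 115 genes, 89.6% in 500 EMPs and 92.2% in 15000 EMPs had a peak at most 3 kb away. Their median covered length was 2871 bp and 5410 bp. The presence of a peak was thus shared with most genes of this list and with the 6 NK genes. Wide peaks were shared too: in 15000 EMPs peaks over 5 kb touched 4 of the 6 NK genes and 75 of the 115 listed genes.

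**Figure D5:**
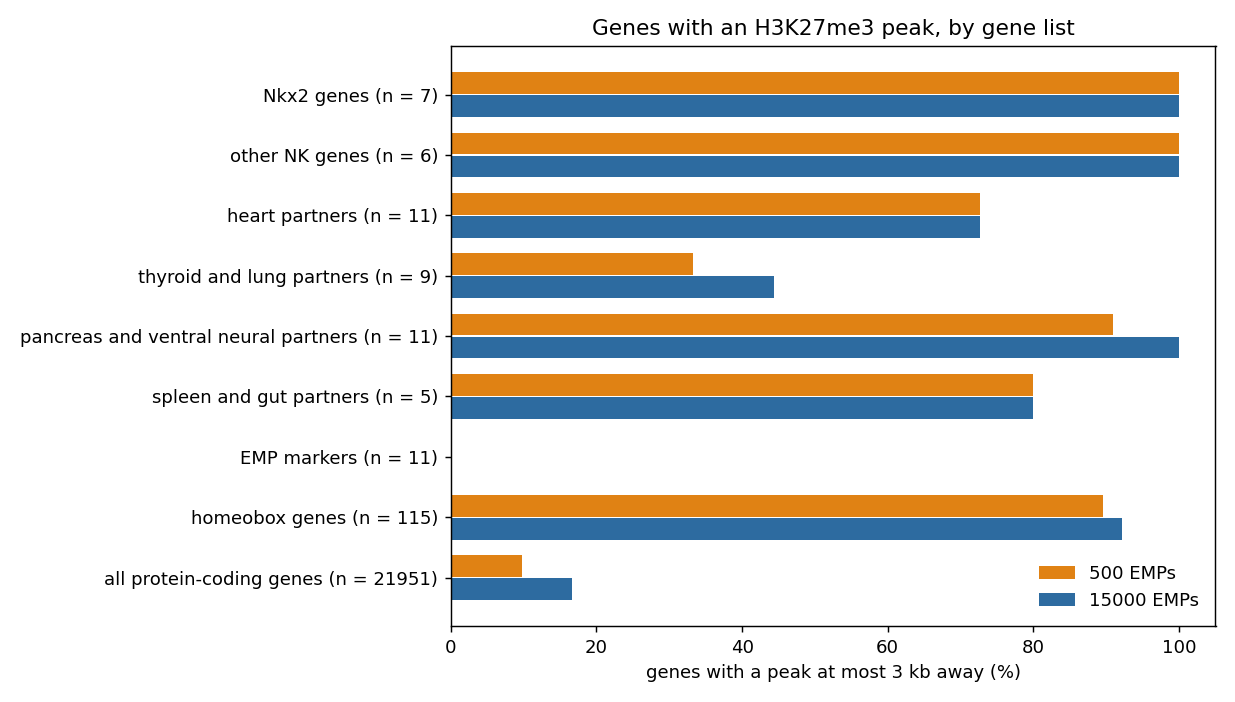
Share in percent of the genes of each list with an H3K27me3 peak at most 3 kb away by the authors' distance, in 500 EMPs (orange) and 15000 EMPs (blue), with the number of genes in each list. The Nkx2 and other NK genes reach 100% in both libraries, the EMP markers 0%, and all protein-coding genes 9.72% and 16.7%.

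Genes that act with the Nkx2 factors in their organs differed in how many were marked. The share to set beside each list is that of all protein-coding genes, 9.72% in 500 EMPs and 16.7% in 15000 EMPs. Of 11 heart partners of Nkx2-5, 8 had a peak at most 3 kb away in both libraries, among them Gata4 and Tbx5, transcription factors of the heart, with 3478 and 3382 covered bp in the start window in 500 EMPs and 4597 and 6001 bp in 15000 EMPs. Mef2c, Nppa and Myh6 had none in either. Over the 11 heart partners the median covered length was 1205 bp in 500 EMPs and 4879 bp in 15000 EMPs. Mef2c is also used in blood cells, Nppa encodes the atrial natriuretic peptide and Myh6 a cardiac myosin. Hand1, a heart and extraembryonic factor, ran against the general order, with 6001 bp covered in 500 EMPs and 5721 bp in 15000 EMPs.

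Of 9 thyroid and lung partners of Nkx2-1, 3 had a peak in 500 EMPs, the transcription factor genes Pax8, Foxe1 and Foxa2, and 4 in 15000 EMPs, where the surfactant gene Sftpc was added with 794 covered bp. The thyroid genes Tg and Tshr, the lung genes Sftpb and Scgb1a1 and the early endoderm and blood factor gene Hhex had none in either library. Of 11 partners in pancreas and ventral neural tube, 10 had a peak in 500 EMPs and 11 in 15000 EMPs. Pax4, an islet factor, was the one added, with 0 and 3116 covered bp. Olig2, which marks motor neuron progenitors beside the Nkx2-2 domain, held 4223 and 5641 bp, and the signal Shh held 1960 and 4916 bp.

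Of 5 spleen and gut partners of Nkx2-3, 4 had a peak in both libraries. Tlx1, which spleen formation requires, held 4817 and 6001 covered bp. Madcam1, an endothelial adhesion gene that depends on Nkx2-3, had none. Beside these, 11 genes of EMPs and early blood cells were looked up, Kit, Itga2b, Fcgr3, Fcgr2b, Ptprc, Runx1, Myb, Spi1, Gfi1b, Csf1r and Gata1. Kit, Itga2b, Fcgr3 and Fcgr2b encode the surface proteins used for the sort. Among all of these, 0 of 11 had a peak in either library, and 0 bp of each start window was covered. Since 9.72% and 16.7% of all protein-coding genes had one, a list of this length with none lies near the background and says little about the labelled cell type. The files used here hold no expression values, so whether any of these genes was expressed could not be read from them.

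Outside the NK2 family and its windows, the 5 protein-coding genes whose covered lengths in the start window came nearest to the family medians were Phf24, Tfap2a, Barhl2, Neurog2 and Prdm13. Likeness was the straight-line distance over the 2 libraries, 51.7 bp for Phf24 and 158.1 bp for Prdm13. Tfap2a is a neural crest and surface ectoderm factor, with 3570 and 5625 covered bp, and Neurog2 is a factor of neuron formation, with 3468 and 5694 bp.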

How the data were processed

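H3K27me3 was mapped by CUT&RUN in EMPs, with 1 library of 500 and 1 of 15000 cells. Per the labels, libraries were amplified with 17 and 16 PCR cycles and sequenced as paired reads of 76 and 59 bp on different instruments. The labels and the study's methods differ in the library kit and instrument models they name. The authors aligned reads to mm10 (GRCm38) with Bowtie2 2.2.1 and called broad peaks with MACS2 2.1.2 against IgG, at p-value thresholds of 0.01 for 500 EMPs and 0.05 for 15000 EMPs. The peak-calling commands in the study's reporting summary name the libraries the other way round, and the labels were followed here. That summary also gives fewer reads and a lower alignment rate for 500 EMPs, which could not be corrected for from peak positions.

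The files used here held peak positions, and tables that gave, for each peak, a gene, where the peak lay relative to it and how many bp away. They held no counts or scores. The study's reporting summary also names signal tracks, which were not used here. Table starts and ends lay 1 bp above those of the peak lists, and the lists were used. Of the peaks on chromosomes, 0 ran past a chromosome end of GRCm38.p6.

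Positions are 1-based. Genes were taken from GENCODE vM21, promoters from RefSeq. Peak overlap, covered length and composition were computed in Python 3.11.15 with scipy 1.17.1 and pyfaidx 0.9.0.4, and the interval functions were tested on simulated data. Overlap required 1 bp. No test between libraries was possible with 1 library each. The members, their gene lists and the comparisons were chosen with earlier results of these data known. Some genes of these lists are not reported here. The rule for named genes took the members, protein-coding neighbours reaching into a window, the smaller side of each gene list (genes with or without a peak) and the 5 genes nearest to the family medians. Non-coding neighbours and the other list genes named, such as Nkx6-2, Nkx6-3, Gata4, Tbx5, Hand1, Olig2, Shh and Tlx1, were picked as examples after their values were seen. Alternatives were other distance limits, windows of 10 and 50 kb, lists without the narrowest peaks, joined peaks, other overlap rules and other start definitions.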

Additional observations from a re-analysis of the deposited data

How the results depend on the processing

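No paired analysis was possible because each cell number had 1 library. All 7 genes kept a peak in both libraries under limits of 1 and 5 kb, with distances to the annotated start, and without the narrowest peaks. Of 56 alternative values for 12 results, 43 stayed within 1.5 times the value reported, or for shares within its interval, and 13 did not. Joining peaks within 1 kb gave 30 and 16 peaks in the windows for 500 and 15000 EMPs, and joining within 3 kb gave 11 and 10. In 500 EMPs these joins raised the covered length to 101108 and 128524 bp, and the median covered length of the start window to 5580 and 6001 bp. With a join of 3 kb, 7 of 7 starts were covered in 500 EMPs. The join itself adds the bases between peaks. Without the narrowest peaks 100% of the 500-EMP peaks had a counterpart, and when 50% of both peaks had to overlap 2.11% did. Of the 15000-EMP peaks 17.5% had one when 50% of the peak had to overlap, and 5% when 50% of both peaks had to. A pair in which one peak is more than 2 times as wide as the other cannot meet the last rule. The lists were not matched for sequencing depth, which was lower for 500 EMPs. Peak height was not examined and replicate spread is unknown, which limits each comparison between the libraries to presence and length of peaks.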

Other observations

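Several non-coding transcripts shared the marked stretches. Nkx2-2os, an antisense transcript of Nkx2-2 that is 147599 bp long, held 9 peaks with 5865 covered bp in 500 EMPs and 3 peaks with 15270 bp in 15000 EMPs. Its start lay 557 bp from the nearest 500-EMP peak and inside a 15000-EMP peak. 6430503K07Rik, a short antisense gene of 984 bp in the same stretch, held 0 covered bp in 500 EMPs and all 984 bp in 15000 EMPs. Sfta3-ps, downstream of Nkx2-1, had its start inside a peak in both libraries, with 7242 and 12773 covered bp. C87198, a lincRNA between Nkx2-1 and Nkx2-9, held 0 peaks in both libraries. Of the peaks in the Nkx2 windows, 27 of 95 in 500 EMPs and 13 of 40 in 15000 EMPs were paired only with other symbols in the annotated lists, so that a search by Nkx2 symbol left them out.

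The gaps of the 15000-EMP list were not always empty in 500 EMPs. Of 30 gaps of at most 3 kb between neighbouring 15000-EMP peaks in the windows, 10 held at least 1 base of a 500-EMP peak, 6 were covered over more than 50% of their length and 3 were covered whole. The gap at the start of Nkx2-3 was among the 10. The share over all gaps of the 15000-EMP list was not measured. It therefore cannot be said whether these counts differ from the rest of the list. The cause was not tested.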
